A study of Mus musculus with 6 samples.

Results

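The nuclear genes for mitochondrial ribosomal proteins were examined on 6 Agilent mouse arrays of spleen RNA. The members are the probes, other than controls, whose RefSeq transcript belongs to a gene with the symbol Mrpl (large subunit) or Mrps (small subunit) and a number. They were 78 genes (49 Mrpl and 29 Mrps) with 100 probes, out of 20655 genes named on the array. The SA-H group comprised 3 arrays (4, 5 and 6) and the MOD group 3 arrays (1, 2 and 3). All samples came from male ICR mice, an outbred strain, aged 8 weeks at the start, and all mice in both groups had received cyclophosphamide, an alkylating drug that depletes dividing lymphocytes, intraperitoneally at 40 mg/kg for 5 days. By the labels, the SA-H mice then received schisandrol A (SA), a lignan of Schisandra chinensis, by gavage at 1000 mg/kg per day, and their spleens are placed at day 28. The study's own animal experiment states another dose and a shorter gavage for its group of this name. The labels place the MOD spleens at day 5, whereas the protocol gives model mice distilled water over the 4 weeks of SA gavage, so that treatment and labelled day cannot be told apart. Nothing in the labels says that each array came from a separate mouse, so that all p-values given here reflect only the spread among these samples, which may be technical.

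Mitochondria keep a ribosome of their own, descended from that of bacteria, which makes the core subunits of the respiratory chain encoded in mitochondrial DNA. Its rRNA comes from mitochondrial DNA, but all of its proteins are encoded in the nucleus, made on cytosolic ribosomes and imported. Many of these proteins have a bacterial counterpart, and the others were added during the evolution of mitochondria. In lymphocytes, mitochondrial translation is known to increase with activation and growth. In whole spleen RNA, fewer cells of a type and less RNA per cell cannot be told apart.

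Expression is given as a log2 level, the processed signal of a probe relative to the 75th percentile of its array, so that 0 marks that percentile. The percentile was 220, 868 and 433 on SA-H arrays 4, 5 and 6 and 626, 840 and 599 on MOD arrays 1, 2 and 3. Between 44.7% and 73.9% of spots on the SA-H arrays and between 43.1% and 72.2% on the MOD arrays were well above background, and 0 spots were saturated. SA-H array 6 was scanned on the same day as MOD arrays 1 and 3, SA-H array 4 on the same day as MOD array 2, and SA-H array 5 on a day of its own. The labelled tissue is spleen. Of the B cell markers on the array 10 of 10, and of the T cell markers 10 of 11, were well above background on each array of at least 1 group. The protocol for RNA extraction mentions liver as well, but 4 of 12 liver markers passed that limit, and Apoa1, Cyp3a11 and Ttr were well above background on 0 arrays.

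The mitoribosomal protein genes changed little between the groups. Of the 78 genes, 76 were tested, and 74 of these 76 had a probe well above background on all 6 arrays. A gene was called where it differed by 2-fold or more with an unadjusted limma p below 0.05, and a gene past that p at any fold is described as nominally higher or lower. By this rule 0 members were called higher in the SA-H group and 1 was called lower (Mrpl37, 1.32% of those tested). Over all 14474 tested genes and targets, 7.74% were called higher and 5.03% lower. In the SA-H group 0 members were nominally higher and 7 nominally lower, while 10.8% of all tested genes were nominally higher and 12.5% nominally lower. No member passed an adjusted p of 0.05 by limma or by the test of the study's methods (0 of 76 each), and 0 of all tested genes did by limma.

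The log2 fold change (SA-H minus MOD) was negative for 50 members and positive for 26. Its median was -0.15, beside -0.04 over all tested genes. The changes ranged from -1.50 (Mrpl37) to 0.62 (Mrpl27), with quartiles at -0.33 and 0.08. Members moved by less than the median gene, with a median absolute change of 0.23 on the log2 scale, beside 0.46 over all tested genes. Their spread within a group was like that of other genes, with a median SD of 0.32 beside 0.38. In 16 members the SA-H arrays all lay below the MOD arrays (21.1%), and in 0 they all lay above. Over all tested genes the shares were 20.7% below and 11.9% above, so that the share of members below was near the background.

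The 47 large subunit genes and the 29 small subunit genes gave similar values. Subunit follows the gene symbol, here and in the figures. The small subunit set therefore includes Mrps18a and Mrps30, whose products sit in the large subunit, and Mrps36. The median change was -0.11 for the large subunit, with 3 nominally lower genes, and -0.18 for the small subunit, with 4 such genes. Members with a bacterial counterpart (44 tested) and members without one (31 tested) both had a median of -0.15, with 5 and 2 nominally lower genes. Mrps36, which is counted in neither class because its product is now known as a part of the 2-oxoglutarate dehydrogenase complex, changed by -0.14.

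The arrays within a group differed by as much as the groups. After subtraction of each gene's mean over the 6 arrays, the median member stood at 0.18, -0.36 and 0.01 on SA-H arrays 4, 5 and 6, against 0.23, -0.05 and 0.04 on MOD arrays 1, 2 and 3. SA-H array 5 was the low one, and it gave the lowest level of 43 members (56.6%), beside 23.5% of all tested genes. The highest level was on SA-H array 4 for 33 members (43.4%) and on MOD array 1 for 29 (38.2%), while SA-H array 5 was the highest for 0. Over all tested genes these shares were 35.2%, 17.9% and 6.65%. The members shared this order only loosely, since the median correlation between pairs of members over the 6 arrays was 0.36, and all of these pairs share the same arrays and their scaling. The median change of the members was 0.01 once SA-H array 5 was left out and -0.27 once SA-H array 4 was left out. Within a scan day it was -0.13 (SA-H array 6 against MOD arrays 1 and 3) and 0.24 (SA-H array 4 against MOD array 2). The median of the set therefore had no settled sign.

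**Figure D1:**
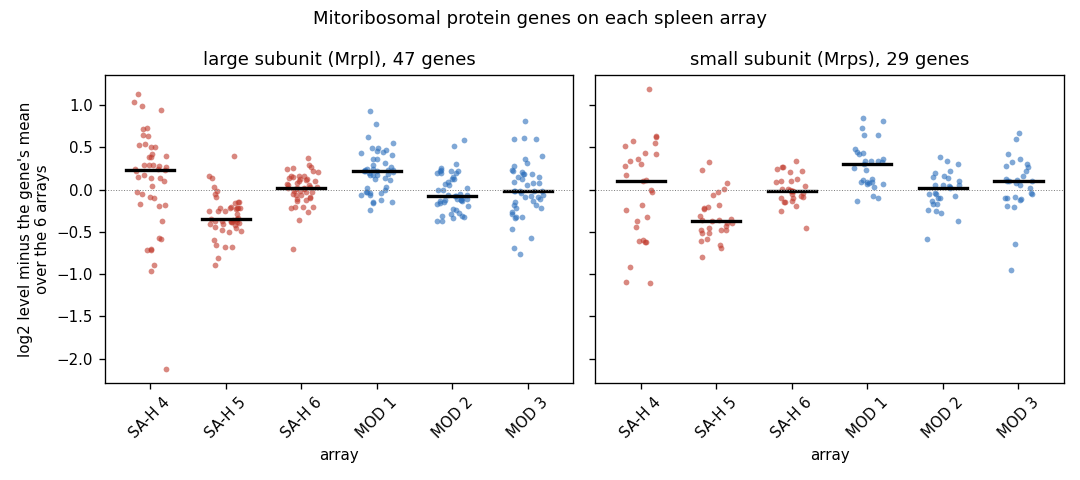
Each point is 1 gene, plotted as its log2 level minus its own mean over the 6 arrays, for 47 large subunit genes and 29 small subunit genes on SA-H arrays 4, 5 and 6 (red) and MOD arrays 1, 2 and 3 (blue); black lines are medians. SA-H array 5 is low in both subunits, SA-H array 4 has the widest scatter, and the groups overlap.

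**Figure D2:**
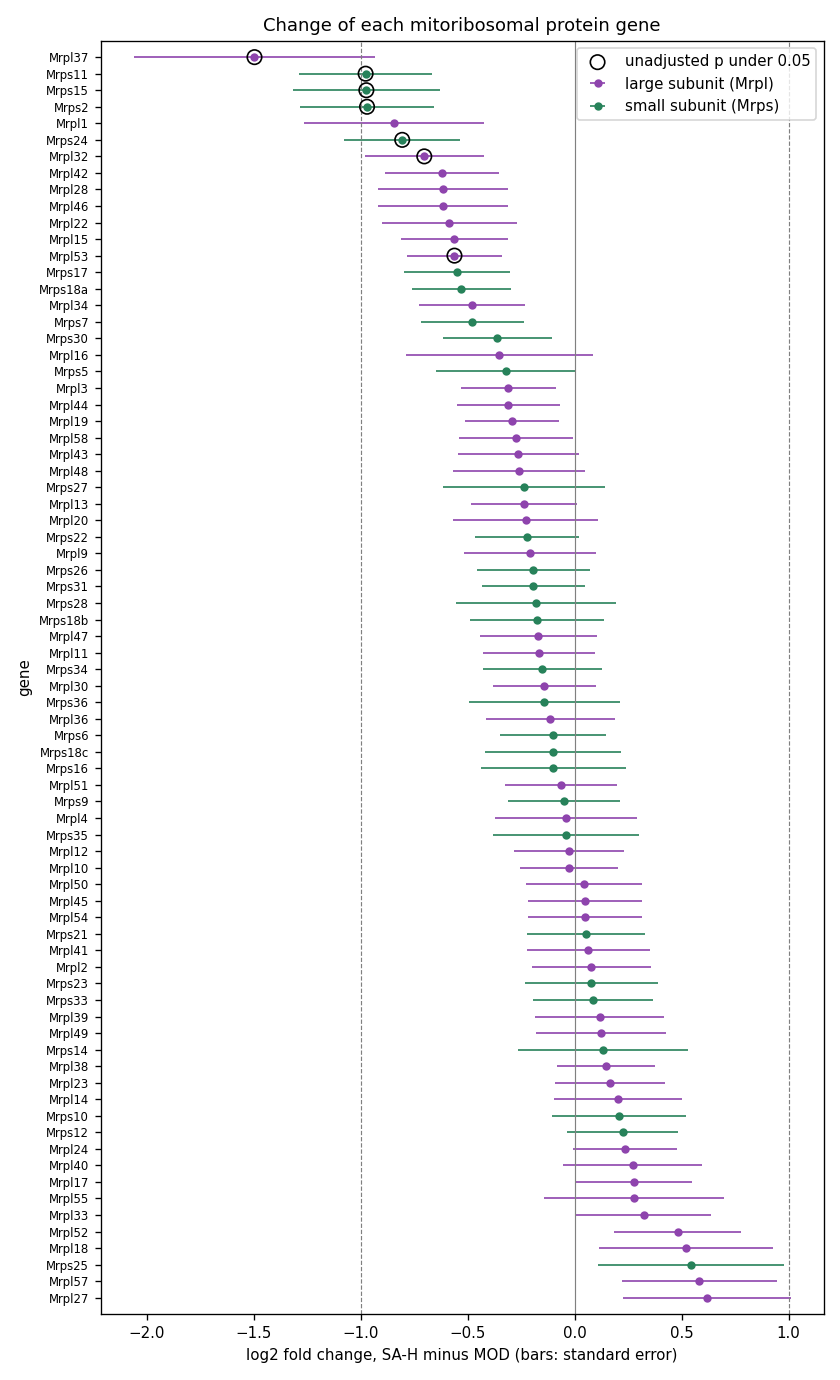
Log2 fold change (SA-H minus MOD) of the 76 tested members, with the standard error from limma as bars, sorted from the lowest to the highest; dashed lines mark a fold change of 2 and rings the 7 nominally lower members. All 7 ringed genes lie on the negative side, and Mrpl37 alone lies past a dashed line.

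The 7 nominally lower members were 4 of the small subunit and 3 of the large subunit. In all 7 the SA-H arrays lay below the MOD arrays, which is the pattern that this limit favours with 3 arrays a group. Mrps11 encodes a protein of the platform of the small subunit, the part that faces the messenger RNA. Its level was -0.87, -0.91 and -0.45 on SA-H arrays 4, 5 and 6, against 0.59, -0.31 and 0.42 on MOD arrays 1, 2 and 3. The gap between the groups was narrow, with MOD array 2 nearest to SA-H array 6. The log2 fold change was -0.98 ± 0.31 (SE; limma adjusted p = 0.141). Mrps15 encodes a protein that binds the small subunit rRNA early in assembly in bacteria. It stood at 0.17, 0.93 and 1.26 in the SA-H group, against 2.0, 1.41 and 1.87 in the MOD group, a log2 fold change of -0.97 ± 0.34 (adjusted p = 0.164). SA-H array 4 was the lowest by a wide margin, and MOD array 2 was again the lowest of its group.

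Mrps2 belongs to the small subunit proteins that are conserved from bacteria, and in humans its variants cause a combined defect of the respiratory chain. It stood at -2.03, -1.16 and -1.08 in the SA-H group, against -0.29, -0.55 and -0.51 in the MOD group, a log2 fold change of -0.97 ± 0.31 (adjusted p = 0.144). The MOD arrays lay close together and SA-H array 4 was the lowest. A second Mrps2 probe was well above background on only 2 arrays of each group and was not kept. It did not show this order, at -1.82, -3.54 and -3.62 in the SA-H group, against -4.05, -2.70 and -3.30 in the MOD group. Mrps24 is the counterpart of bacterial S3, which sits where messenger RNA enters the ribosome. It stood at 1.96, 1.88 and 2.14 in the SA-H group, against 3.21, 2.74 and 2.46 in the MOD group, a log2 fold change of -0.81 ± 0.27 (adjusted p = 0.152). Here the SA-H arrays were the tighter group (SD 0.14, n = 3) and the MOD arrays the looser one (SD 0.38, n = 3).

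In the large subunit, Mrpl37, a protein without a bacterial counterpart, was the only member called. Its level was -4.61, -2.75 and -2.36 in the SA-H group, against -1.57, -1.98 and -1.69 in the MOD group, and its log2 fold change was -1.50 ± 0.57 (adjusted p = 0.181). Its probe was the dimmest of the tested members and did not stand well above background on SA-H array 4, so that the lowest value is poorly measured. Without that array the change was -0.81, and after normexp background correction it was -0.42. Mrpl32 is a conserved protein that, as shown in yeast and mouse, must be cut by the m-AAA protease before it enters the ribosome. It stood at 0.36, 0.72 and 0.67 in the SA-H group, against 1.48, 0.84 and 1.54 in the MOD group, a log2 fold change of -0.70 ± 0.28 (adjusted p = 0.194). MOD array 2 lay near the SA-H arrays and the other MOD arrays lay apart from them.

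Mrpl53, a large subunit protein without a bacterial counterpart, had the smallest change of the 7. It stood at 1.75, 1.74 and 2.02 in the SA-H group, against 2.37, 2.31 and 2.51 in the MOD group, a log2 fold change of -0.56 ± 0.22 (adjusted p = 0.192). Since the groups of these 7 genes do not overlap, their sign within a scan day was fixed by the choice. The differences ranged from -0.42 (Mrpl53) to -0.96 (Mrps11) on the day with SA-H array 6, and from -0.48 (Mrpl32) to -2.64 (Mrpl37) on the day with SA-H array 4. Without MOD array 1, 0 members were nominally lower, although the changes of the 7 genes then still ranged from -0.58 (Mrpl53) to -1.41 (Mrpl37). Without MOD array 3 only Mrps2 and Mrps24 were nominally lower. In the value table deposited by the authors, 5 members were nominally lower, of which 2 (Mrpl37 and Mrps24) were among the 7, and Mrpl32 had the opposite sign there (0.27). The change was small there for Mrps15 (-0.033), Mrps11 (-0.081), Mrpl53 (-0.14) and Mrps2 (-0.24), and larger for Mrpl37 (-0.85) and Mrps24 (-0.73).

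**Figure D3:**
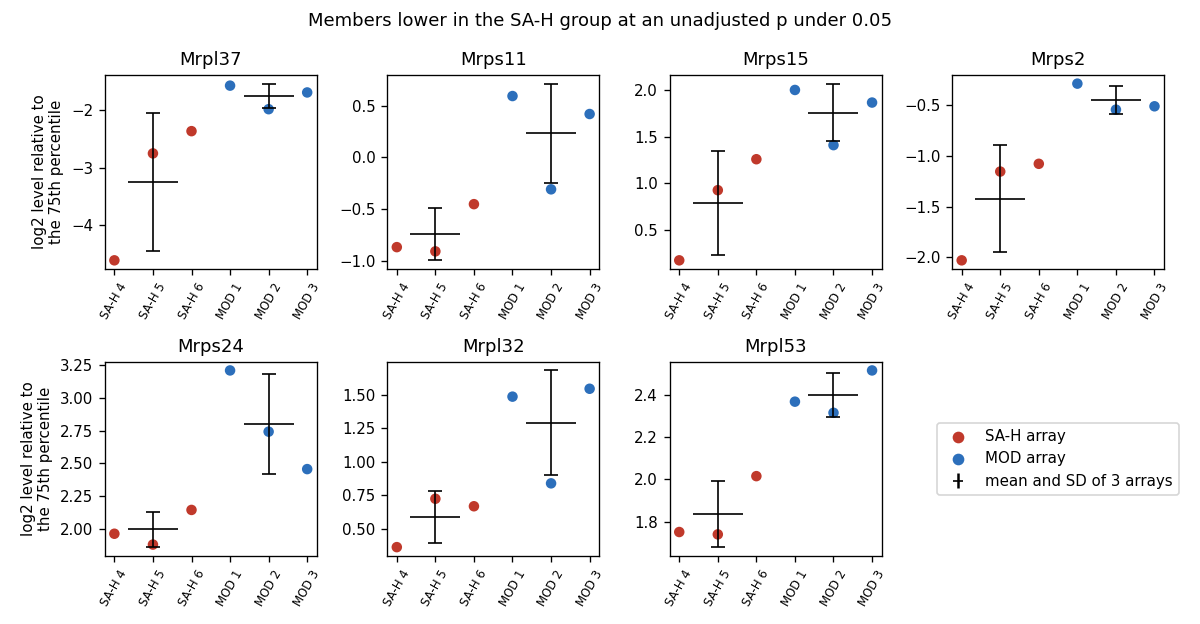
Log2 level relative to the 75th percentile of the array for the 7 nominally lower members, on SA-H arrays 4, 5 and 6 (red) and MOD arrays 1, 2 and 3 (blue), with the mean and SD of each group in black. In each panel the 3 red points lie below the 3 blue points, with MOD array 2 the lowest blue point for Mrpl37, Mrps11, Mrps15, Mrps2, Mrpl32 and Mrpl53, and SA-H array 4 far below the others for Mrpl37, Mrps15 and Mrps2.

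Promoters of these genes are known for short elements bound by NRF1, by ETS factors such as GABPA, and by YY1. They were searched on both strands in the 300 bases from 250 before to 50 after the RefSeq start, as the cores GCGCATGC (NRF1), CCGGAAG (ETS) and AAGATGGC (YY1), none of which contains another, although an ETS and a YY1 core can share the letters AAG. Of the 78 members, 69 had such a window. The NRF1 core was found in 8 of 69 members (11.6%, beside 3.93% of 17491 protein-coding genes), the ETS core in 26 (37.7% beside 12.9%) and the YY1 core in 12 (17.4% beside 3.57%). Among the 27025 genes of all kinds with a window, the shares were 3.05%, 9.93% and 3.19%. At least 1 of the 3 was present in 38 members (55.1%, beside 18.7% of protein-coding genes). A match describes the letters only and is no shown site of binding.

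The YY1 core was present in 4 of the 7 nominally lower members (Mrpl37, Mrps11, Mrps24 and Mrpl32), and the NRF1 and ETS cores in 1 each. The median change was -0.53 for the 11 tested members with the YY1 core and -0.10 for the 56 without it. For the NRF1 core the medians were -0.10 with it and -0.14 without it, and for the ETS core -0.10 with it and -0.15 without it. These are descriptions of 1 set of arrays with no test of the difference. Of the members with the YY1 core, Mrpl37, Mrps27, Mrps11, Mrpl42, Mrps18a and Mrpl32 were among the dimmest 26 tested members by mean level. Mrpl36, Mrpl49, Mrps7, Mrps12 and Mrps24 were among the middle 25. The median change was -0.32 in the dimmest 26, -0.14 in the middle 25 and 0.05 in the brightest 25 members. The part of probe brightness in the YY1 contrast was not tested. The 4 nominally lower genes are among the 11 and were chosen by their change. The other tested members with the core changed by -0.62 (Mrpl42), -0.53 (Mrps18a), -0.48 (Mrps7), -0.24 (Mrps27), -0.11 (Mrpl36), 0.12 (Mrpl49) and 0.22 (Mrps12). The 30 bases around each YY1 core in the 4 genes are given as examples. They are RefSeq sequence of build GRCm38.p6, given 5′ to 3′ on the strand of the gene, and the capitals mark the core or its reverse complement.
Mrpl37 (chr4:107066822-107066851, minus strand, core 26 bases after the start): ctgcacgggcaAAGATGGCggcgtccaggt
Mrps24 (chr11:5707652-5707681, minus strand, core 36 bases after the start): cgggtcgcgccggcccAAGATGGCgtggtc
Mrps11 (chr7:78783013-78783042, plus strand, core 107 bases before the start): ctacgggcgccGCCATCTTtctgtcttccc
Mrpl32 (chr13:14613258-14613287, minus strand, core 242 bases before the start): cgcgctctGCCATCTTtacccggaaagtcg
In Mrpl37 and Mrps24 the core read along the strand of the gene and lay just inside the transcript, whereas in Mrps11 and Mrpl32 it read on the opposite strand and lay upstream. A neighbour on that opposite strand starts 42 bases from Mrps11 (Mrpl46) and 205 bases from Mrpl32 (Psma2). Both upstream cores thus lay past the neighbour's start, on its transcribed side, and read along the neighbour's strand.

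The promoters of Mrpl32 and Mrpl53 are shown as examples of the other elements in nominally lower members. Each run goes from 100 bases before the start through 30 bases from the start on, and the capitals mark NRF1 cores in Mrpl32 and ETS cores in Mrpl53.
Mrpl32 (chr13:14613008-14613137, minus strand): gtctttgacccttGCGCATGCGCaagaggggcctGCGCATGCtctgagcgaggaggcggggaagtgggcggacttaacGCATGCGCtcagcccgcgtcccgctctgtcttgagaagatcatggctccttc
Mrpl53 (chr6:83109008-83109137, plus strand): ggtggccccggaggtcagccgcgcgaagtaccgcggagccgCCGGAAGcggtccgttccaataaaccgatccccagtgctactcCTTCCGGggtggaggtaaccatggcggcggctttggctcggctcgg
Mrpl32 holds 4 NRF1 matches, of which the first pair overlap on opposite strands as the run GCGCATGCGC, and Mrpl53 holds 2 ETS matches in opposite directions.

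Many members are transcribed head to head with a neighbour. Of the 69 members with a window, 27 (39.1%) had another gene starting head to head on the opposite strand within 1000 bases (or overlapping by up to 100), beside 13.9% of protein-coding genes. Mrps11 and Mrpl46, which encode a small and a large subunit protein, start 42 bases apart. The stretch is shown from 72 bases before the Mrps11 start through 30 bases from it on, and the 42 capitals run from the Mrpl46 start to the last base before the Mrps11 start.
Mrps11 and Mrpl46 (chr7:78783059-78783160, plus strand): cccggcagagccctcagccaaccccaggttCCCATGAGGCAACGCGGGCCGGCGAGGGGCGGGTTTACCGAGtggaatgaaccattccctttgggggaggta
In Mrpl46 the SA-H arrays also lay below the MOD arrays, at -1.57, -0.69 and -0.69 in the SA-H group, against -0.22, -0.42 and -0.46 in the MOD group. Its log2 fold change was -0.62 ± 0.30 (adjusted p = 0.264), so that it was not nominally lower.

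Some other neighbours went a different way from the member beside them. Mrpl57, which encodes a small large-subunit protein without a bacterial counterpart, starts 76 bases from Ska3, a gene of the spindle and kinetochore. Its level was 5.36, 3.98 and 4.79 in the SA-H group, against 4.18, 4.13 and 4.08 in the MOD group, a log2 fold change of 0.58 ± 0.36 (adjusted p = 0.356). The groups overlapped, since SA-H array 5 lay below all MOD arrays. Ska3 changed by -1.33 ± 0.46 (adjusted p = 0.161). The stretch is shown from 106 bases before the Mrpl57 start through 30 bases from it on, and takes in the 76 bases between both starts. The ETS core, in capitals, lies 4 bases after the Mrpl57 start, inside its transcript.
Mrpl57 and Ska3 (chr14:57826133-57826268, plus strand): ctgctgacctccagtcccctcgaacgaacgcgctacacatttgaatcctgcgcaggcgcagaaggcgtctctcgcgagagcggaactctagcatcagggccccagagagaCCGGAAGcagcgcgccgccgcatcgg
Mrpl32 (-0.70) lies 205 bases from Psma2, a proteasome subunit gene with a change of 0.29 ± 0.25, and Mrpl37 (-1.50) lies 128 bases from Cyb5rl, with a change of 0.25 ± 0.25. Mrpl50 (0.04) lies 93 bases from Zfp189, a zinc finger gene that changed by -0.72 ± 0.24 (adjusted p = 0.153). Among 20 pairs in which the member and a neighbour of another kind were both tested, 7 had the same sign. Of these neighbours 2 were nominally lower and 0 nominally higher, beside 12.5% and 10.8% of all tested genes. The pairs were not tested against each other, and those named were chosen after their values had been seen.

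A further 9 members had all SA-H arrays below all MOD arrays without being nominally lower. They were Mrpl46, Mrpl42 (-0.62), Mrpl15 (-0.56), Mrps17 (-0.55), Mrps18a (-0.53), Mrpl34 (-0.48), Mrps7 (-0.48), Mrpl3 (-0.31) and Mrpl19 (-0.29), with adjusted p between 0.218 and 0.433. Mrpl42 stood at -0.54, -0.05 and 0.16 in the SA-H group, against 0.66, 0.38 and 0.39 in the MOD group. Mrps18a, whose product sits in the large subunit in spite of its name, stood at 0.09, 0.05 and 0.31 in the SA-H group, against 0.89, 0.56 and 0.57 in the MOD group. For both genes the gap between the groups was of the size of the spread within them. Mrpl1, the counterpart of the bacterial L1 stalk protein, had a log2 fold change of -0.84 ± 0.42, but SA-H array 5 (-1.0) lay above MOD array 3 (-1.49).

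The brightest probes of each subunit gave no change past the limits. Mrpl20, a conserved large subunit protein, stood at 4.71, 3.48 and 3.95 in the SA-H group, against 4.40, 4.29 and 4.15 in the MOD group (log2 fold change -0.23 ± 0.34). Mrpl33, also conserved from bacteria, stood at 5.40, 4.32 and 4.82 in the SA-H group, against 4.65, 4.54 and 4.40 in the MOD group (log2 fold change 0.32 ± 0.32). In both genes SA-H array 4 was the highest and SA-H array 5 the lowest of all 6 arrays, while the MOD arrays lay close together. Of the small subunit, Mrps16 changed by -0.10 ± 0.34, Mrps33 by 0.09 ± 0.28 and Mrps21 by 0.05 ± 0.28. Mrps21 stood at 4.99, 4.17 and 4.61 in the SA-H group, against 4.68, 4.46 and 4.47 in the MOD group, with the same order among the SA-H arrays.

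The highest changes were those of Mrpl27 (0.62 ± 0.39), Mrpl57, Mrps25 (0.55 ± 0.44), Mrpl18 (0.52 ± 0.41) and Mrpl52 (0.48 ± 0.30), and none of these 5 was nominally higher. Mrpl27 encodes a conserved protein whose bacterial counterpart reaches the peptidyl transferase centre. It stood at 4.96, 3.46 and 3.97 in the SA-H group, against 3.67, 3.50 and 3.36 in the MOD group, so that SA-H array 4 was more than 1 above every MOD array on the log2 scale while SA-H array 5 lay among them. Without SA-H array 5, Mrpl27 and Mrpl57 were nominally higher, whereas in the deposited value table Mrpl57 was nominally lower (-0.51). Mrps25, a small subunit protein without a bacterial counterpart, stood at 3.17, 1.50 and 2.07 in the SA-H group, against 1.84, 1.39 and 1.87 in the MOD group. Again SA-H array 4 alone was far above the rest.

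The change of a member went with the brightness of its probe. When the 76 members were ordered by mean level, the median change was -0.32 in the dimmest 26, -0.14 in the middle 25 and 0.05 in the brightest 25, with 5, 2 and 0 nominally lower genes. Across members the correlation of change with mean level was 0.57, given as a description over probes that share the 6 arrays, beside 0.04 over all tested genes. SA-H array 4 moved with it. Its median level relative to each gene's mean was -0.59 in the dimmest, 0.26 in the middle and 0.43 in the brightest members, and this array had the lowest 75th percentile of signal of the 6. Without SA-H array 4 the correlation was 0.19 and the medians were -0.30, -0.29 and -0.16. In the deposited value table the correlation was -0.08. The part of probe brightness in these changes was not tested further. Over all tested genes, the share of calls was 18.7% in the dimmest and 7.71% in the brightest of 4 equal classes of level, and 35 of the 76 members lay in the brightest class.

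**Figure D4:**
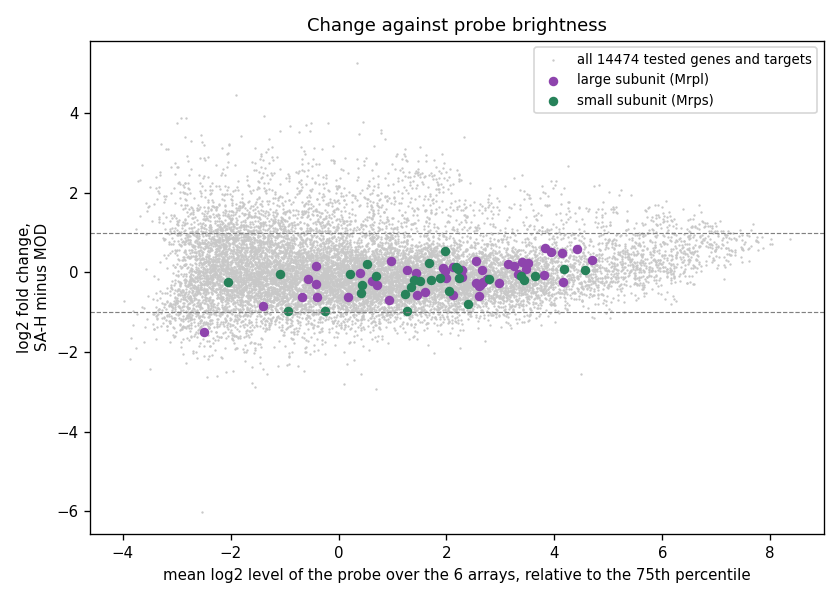
Log2 fold change (SA-H minus MOD) against the mean log2 level of the probe over the 6 arrays, for all 14474 tested genes and targets (grey) and for the large subunit (purple) and small subunit (green) members; dashed lines mark a fold change of 2. Members sit on the right, bright side of the cloud, close to 0, and the dim members lie lower than the bright ones.

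Some members had very similar means in both groups. Mrpl10, a protein of the stalk base in bacteria, stood at 0.21, 0.42 and 0.50 in the SA-H group, against 0.37, 0.59 and 0.26 in the MOD group (log2 fold change -0.03 ± 0.23). Mrpl12, the stalk protein that in human cells also binds the mitochondrial RNA polymerase, stood at 1.66, 1.04 and 1.54 in the SA-H group, against 1.60, 1.31 and 1.41 in the MOD group (-0.03 ± 0.26). In both, the arrays of the groups were interleaved. Mrpl4 (-0.04 ± 0.33), Mrps35 (-0.04 ± 0.34) and Mrps9 (-0.05 ± 0.26) also changed little. A standard error of this size means that small changes were not detectable with 3 arrays a group.

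Of the 17 members with several kept probes, 6 had probes of opposite sign (Mrpl49, Mrpl50, Mrps7, Mrps23, Mrps26 and Mrps36). The probe standing for Mrpl50 changed by 0.04, and a second probe of the same transcript changed by -0.97 ± 0.22 (adjusted p over all probes = 0.090). That probe stood at -1.22, -1.25 and -1.17 in the SA-H group, against -0.12, -0.22 and -0.39 in the MOD group, with narrow spread in both. For Mrps36 the 2 probes gave -0.14 and 0.81, for Mrps26 -0.19 and 0.57, for Mrps7 -0.48 and 0.47, and for Mrps23 0.08 and -0.56. Mrpl41 had 2 probes of like sign but unlike size, 0.06 and 1.65 ± 0.62, and Mrpl4 had -0.04 and -0.89. These last 2 genes were named after their values had been seen. Over the 17 members, the probe with the lower signal gave the larger change in size in 10 and the smaller one in 7.

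Mrpl21 and Mrpl35 were not tested. The probe of Mrpl21, a conserved large subunit gene, was well above background on 0 of 6 arrays, with signals of 8.07, 12.9 and 13.4 in the SA-H group, against 16.3, 14.0 and 9.44 in the MOD group. That of Mrpl35 was well above background on 1 SA-H array and 2 MOD arrays. No level is given for either.

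The other genes of mitochondrial translation were examined through lists chosen with earlier results of these data known. Over all tested genes, 7.74% were called higher and 5.03% lower, and 10.8% were nominally higher and 12.5% nominally lower. Of the 5 mitoribosomal proteins whose genes carry other symbols, 1 was nominally lower (median change -0.17). This was Ptcd3, a pentatricopeptide protein at the messenger RNA entry of the small subunit, at 2.73, 2.37 and 2.98 in the SA-H group, against 3.36, 3.23 and 3.31 in the MOD group (log2 fold change -0.60 ± 0.25; adjusted p = 0.201), while the deposited table gave 0.25. Gadd45gip1 of the large subunit changed by -0.48 ± 0.33, Chchd1 by -0.17 ± 0.28 and Dap3, a GTP-binding protein of the small subunit, by 0.14 ± 0.31.

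Among 21 tested assembly factors of the mitoribosome, 4 were called lower in the SA-H group and 0 higher (median -0.25). That is 19.0% called lower, beside 5.03% of all tested genes. The means of the 4 genes ran from -3.34 (Mpv17l2) to -1.17 (Mterf3) in the SA-H group. In the MOD group they ran from -1.89 (Mpv17l2) to 0.14 (Mterf3). Over all tested genes, 18.7% were called in the dimmest of 4 equal classes of level and 13.2% in the next. These shares count both directions, so that they are no like measure for the 19.0% called lower. The part of brightness in these calls was not tested. Mettl15, which methylates the small subunit rRNA, stood at -1.87, -2.02 and -1.68 in the SA-H group, against -0.57, -1.15 and -0.22 in the MOD group (log2 fold change -1.21 ± 0.30; adjusted p = 0.095). Rpusd4, a pseudouridine synthase that acts on the large subunit rRNA, changed by -1.13 ± 0.28 (adjusted p = 0.095). Mterf3, which takes part in large subunit assembly, changed by -1.31 ± 0.42. Mpv17l2, an inner membrane protein needed for assembly, changed by -1.45 ± 0.41 but was well above background on only 2 SA-H arrays. In the deposited value table Rpusd4 (0.36) and Mterf3 (0.37) had the opposite sign.

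Of 13 translation factors, 1 was called higher and 1 lower (median 0.01). Mtif2, the initiation factor, stood at 6.71, 5.33 and 5.83 in the SA-H group, against 3.96, 4.39 and 4.60 in the MOD group (log2 fold change 1.64 ± 0.39; adjusted p = 0.093), although the deposited table gave only 0.19. With scan day as a block the limma adjusted p of Mtif2 was 0.026. Many of all tested genes passed 0.05 in that fit, as counted in the last section. SA-H array 5, alone on its scan day, adds nothing to the group difference there. Tsfm, the elongation factor Ts, changed by -1.36 ± 0.52 and was well above background on 2 SA-H arrays. Gfm2, which recycles the ribosome, changed by 0.81 ± 0.34, and Taco1, an activator of Cox1 translation, by -0.40 ± 0.22. Among 15 mitochondrial aminoacyl-tRNA synthetases, 0 were called (median -0.26). Of these, 1 was nominally higher and 4 nominally lower, beside 10.8% and 12.5% of all tested genes. Among the lower ones were Lars2 (-0.78 ± 0.24), Wars2 (-0.92 ± 0.32) and Pars2 (-0.60 ± 0.22), for leucine, tryptophan and proline, and Wars2 was well above background on only 1 SA-H array. In the deposited table they changed by -0.22 (Lars2), 0.47 (Wars2) and -0.048 (Pars2).

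Of 8 tested regulators of mitochondrial gene expression in the nucleus, 1 was called lower and 0 were called higher (median -0.09). Gabpa, the ETS factor named above, stood at -1.01, -0.48 and -0.46 in the SA-H group, against 0.56, 0.63 and 0.82 in the MOD group. The groups lay well apart, with a log2 fold change of -1.32 ± 0.25 (adjusted p = 0.081), but the deposited table gave -0.18. With scan day as a block the limma adjusted p of Gabpa was 0.037 and that of Ppargc1a 0.044. Of the mitoribosomal members, 0 passed 0.05 in that fit. Many of all tested genes did so, as counted in the last section, and SA-H array 5 adds nothing to the group difference there. Nrf1 changed by -0.67 ± 0.25, Myc by -0.62 ± 0.30 (0.33 in the deposited table) and Ppargc1a, a coactivator, by 0.83 ± 0.38. Of 8 genes for transcription and replication of mitochondrial DNA, 0 were nominally changed (median 0.00), among them Tfam (-0.63 ± 0.30), Polrmt (-0.47 ± 0.24), Tfb2m (0.61 ± 0.32) and Mgme1 (1.39 ± 0.67). Of 22 genes for protein import, 1 was called higher (Tomm7, 1.02 ± 0.39) and 0 were called lower (median -0.34). Nominally lower were 6, beside 12.5% of all tested genes, among them Tomm70a (-0.68 ± 0.26), Timm17b (-0.62 ± 0.24) and Timm22 (-0.63 ± 0.24). In the deposited table Tomm7 (0.011) was almost level, and Tomm70a (0.22) and Timm22 (0.097) had the opposite sign, while Timm17b had -0.54.

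The cytosolic ribosomal protein genes differed from the mitochondrial ones in the size and sign of their median. Of 80 tested, 7 were called higher (8.75%, near the 7.74% over all tested genes) and 0 lower in the SA-H group, 15 were nominally higher and 1 nominally lower, and the median change was 0.55, beside -0.15 for the mitoribosomal genes. Rps3, which had the smallest p of the list, stood at 5.53, 5.13 and 5.14 in the SA-H group, against 3.80, 3.99 and 3.17 in the MOD group (log2 fold change 1.61 ± 0.29; adjusted p = 0.079, and 0.030 with scan day as a block). Many other tested genes also passed an adjusted p of 0.05 in that block fit. SA-H array 4 held the highest level of 82.5% of the cytosolic ribosomal protein genes, beside 35.2% of all tested genes. Without this array their median change was 0.25. The difference of the medians, 0.69 on the log2 scale, was 0.62 and 0.75 within the scan days, but 0.14 after quantile normalization and 0.13 in the deposited table, and it was not tested. The 77 genes of the respiratory chain and ATP synthase had a median of -0.01, with 1 called higher and 0 lower. Like the mitoribosomal genes, they had their lowest level on SA-H array 5 in most cases (62.3%).

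Most markers of dividing cells were lower in the SA-H group. Of 14 tested, 9 were called lower in the SA-H group and 11 were nominally lower, with a median change of -1.06. Mki67 overlapped between the groups, at 6.10, 5.27 and 5.74 in the SA-H group, against 5.76, 6.03 and 5.61 in the MOD group. The changes of 2 markers were positive. They were Cdk1, whose groups overlapped, and Aurkb (2.24), which was well above background on only 1 MOD array. Over all tested genes, 5.03% were called lower and 12.5% were nominally lower. The summed level of the dividing cell markers ranged from 77.4 to 124 in the SA-H group, against 135 to 156 in the MOD group, in units of the 75th percentile of the array. The 11 erythroid markers had a median of -0.52, with summed levels from 527 to 1470 in the SA-H group, against 533 to 667 in the MOD group. Fat markers summed to between 5.41 and 6.12 in the SA-H group, against 9.63 to 14.0 in the MOD group, and plasma cell markers to between 23.7 and 57.5 in the SA-H group, against 60.3 to 71.1 in the MOD group (median change -0.65, 5 tested). Macrophage markers had a median change of -0.56, with 7 of 9 negative and summed levels of 64.4 to 96.1 in the SA-H group, against 73.8 to 92.5 in the MOD group. The part of these cell markers in the changes of the mitoribosomal genes was not tested.

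**Figure D5:**
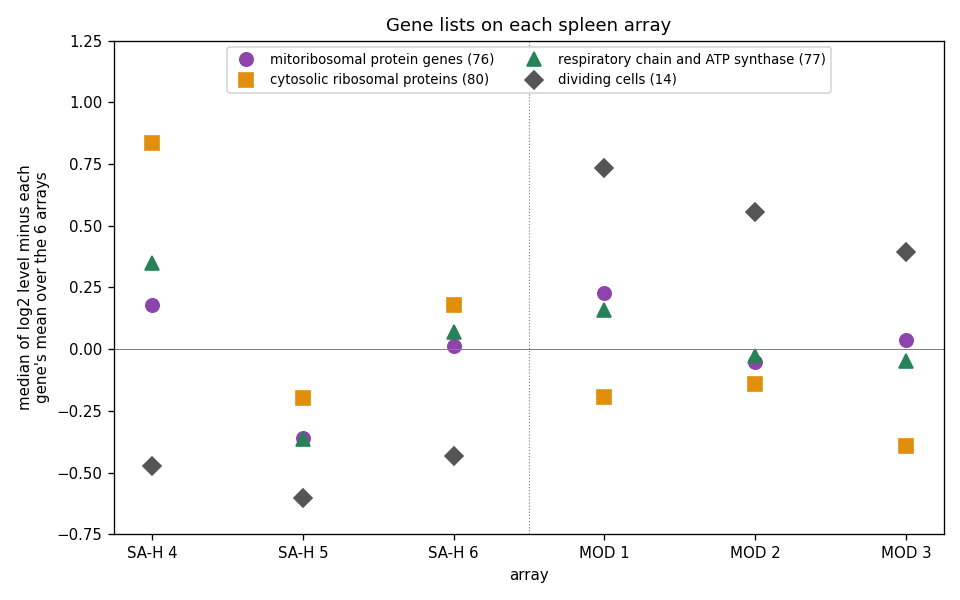
Median over the genes of a list of the log2 level minus each gene's mean over the 6 arrays, for SA-H arrays 4, 5 and 6 (left of the dotted line) and MOD arrays 1, 2 and 3 (right), with the number of tested genes in the legend. The mitoribosomal and respiratory chain lists follow each other and overlap between the groups, whereas the dividing cell list is below 0 on the SA-H arrays and above 0 on the MOD arrays.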

How the data were processed

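RNA of 6 spleen samples was hybridized to 1-colour Agilent mouse arrays. The authors ran Agilent Feature Extraction 11.0.1.1 on the scans. Per the file headers, its intensity values are background-subtracted; they are linear and not normalized between arrays. The authors' deposited value table holds log2 values whose columns share their median (5.34); how it was made is not given in the sources used here. The other deposited columns used are flags per spot (well above background, saturated, outlier).

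The processed signal was divided by the 75th percentile of its array over 43020 spots and taken to log2. Outlier spots (172 to 634 per array) were left out and spots of a probe averaged. Of 39429 probes, 27228 (69.1%) were named through their RefSeq accession and a RefSeq table of assembly GRCm38.p6. Kept probes were well above background on each of the 3 arrays of the SA-H or the MOD group, and the brightest kept probe stood for its gene (14474 tested, 11001 named). SA-H was compared with MOD by limma 3.58.1 in R 4.3.3 with Benjamini-Hochberg adjustment over all tested genes. Other steps used Python 3.11.15, numpy 2.4.6, pandas 2.3.3 and matplotlib 3.10.9. The number of arrays limits the precision.

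On simulated data for this comparison (14474 genes), the call recovered 46% of genes given a log2 change of 1 and 98% of those given 2, with 2.14% of unchanged genes called. The simulated noise was independent between genes, without the shifts that genes share on an array or scan day. These rates therefore do not cover errors from such shifts. A log2 change of 1 also equals the fold limit of the call, which by itself holds down its recovery. The alternatives were quantile normalization, scaling by the median, the deposited value table, other filters on dim probes, the mean over probes, scan day as a block, slide scan as a random block, the methods' ANOVA, and leaving out each array. Normexp (offset 50) used the median signal in place of the mean signal, chosen after seeing the files.

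Named members are those called or with an unadjusted p under 0.05 and no overlap of the groups, the 3 brightest and the 3 with the smallest change in each subunit, undetected ones and those with probes of opposite sign, plus up to 4 genes with the smallest p of each other list. The members with the highest changes, the other members with groups apart and the gene neighbours were named after their values were seen. Members and lists were chosen with earlier results of these data known. The value of 1 gene that this rule takes is not reported here.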

Additional observations from a re-analysis of the deposited data

How the results depend on the processing

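Settings were changed 1 at a time. Of 125 values of the 7 nominally lower members under the alternatives, 36 no longer passed the unadjusted limit, 4 within a scan day moved by more than the spread between arrays and 1 was reversed (Mrpl32, 0.27 in the deposited value table). Their sign on leaving out an array or within a day was fixed by the choice of these genes. The exceptions for lists and counts follow; their other values kept the sign and the side of the limit or moved by less than the spread between arrays, and causes were not tested. Scaling by the median moved all tested genes to -0.36 and the medians of the lists with them: mitoribosomal -0.47 (large subunit -0.43, small subunit -0.50, with a bacterial counterpart -0.48, without one -0.47), other subunits -0.49, assembly factors -0.57, translation factors -0.31, synthetases -0.58, mitochondrial DNA genes -0.32, regulators -0.41, import -0.66 and respiratory chain -0.33. Relative to all tested genes the mitoribosomal median was then -0.11, as with the 75th percentile. Within the day of SA-H array 4 and MOD array 2 the medians were 0.24 for the mitoribosomal genes (large subunit 0.35, small subunit 0.17, with a bacterial counterpart 0.10, without one 0.35), 0.24 for other subunits, 0.28 for translation factors, 0.16 for regulators, -0.11 for import, 0.99 for cytosolic ribosomal proteins, 0.41 for the respiratory chain and 0.070 for all tested genes. Within the other day they were -0.12 for assembly factors and -0.15 for translation factors. In the deposited table they were 0.11 for assembly factors, 0.19 for translation factors, 0.15 for synthetases, 0.24 for mitochondrial DNA genes, -0.092 for import and 0.054 for cytosolic ribosomal proteins, which had 0.0074 after quantile normalization. With probes well above background on all 6 arrays they were -0.10 for assembly factors, 0.022 for synthetases, -0.16 for mitochondrial DNA genes and -0.36 for regulators. Normexp gave 0.063 for synthetases. With scan day as a block the medians were -0.15 for assembly factors and -0.16 for import. Mitochondrial DNA genes had -0.23 with no filter and 0.18 with the mean over probes, and all tested genes 0.14 with no filter.

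Members called lower (1) were 7 with scaling by the median, 3 with scan day as a block, 2 with slide scan as a random block, and 0 with normexp, the deposited table, the filter on all 6 arrays or ANOVA. Nominally lower members were 11 with the random block, and nominally higher ones were 2 in the deposited table, 1 with the mean over probes and 2 with scan day as a block. An adjusted p under 0.05 was reached by 1 member with scaling by the median (Mrpl37) and by 1 in the deposited table (Mrps24). Over all tested genes, calls higher were 304 in the deposited table and 635 with ANOVA, and calls lower were 2157 with scaling by the median, 383 with normexp and 421 with the filter on all 6 arrays. Calls on the higher side made up 60.6% of all calls, 31.6% with scaling by the median and 23.3% in the deposited table. Genes with an adjusted p under 0.05 were 1 after quantile normalization, 1094 with scaling by the median, 210 with normexp, 1779 in the deposited table, 1 with the filter on all 6 arrays and 1076 with scan day as a block.

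Leaving out 1 array at a time gave 0 to 4 members called lower, 0 to 8 nominally lower and 0 to 2 nominally higher. Without MOD array 1, 0 members were nominally lower, and without MOD array 3, 2 were. Medians ran from -0.21 to 0.083 for translation factors, -0.40 to -0.059 for synthetases, -0.12 to 0.069 for mitochondrial DNA genes and -0.44 to -0.16 for import. All tested genes gave 721 to 1600 calls higher, 498 to 1106 calls lower and 0 to 22 with an adjusted p under 0.05. No paired analysis was possible because the groups share no replicate numbers (1, 2 and 3 against 4, 5 and 6).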
